A study of Homo sapiens and Mus musculus with 30 samples.

Results

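The comparison described here is that of the adult hippocampus with the hippocampus at P0, the day of birth, in mouse brain. Its members were chosen by their sample titles, Hippocampus Adult and Hippocampus P0, which are 2 of the 30 samples of the series. Each sample held 3 sequenced libraries, so 6 of 93 libraries enter it. Per the labels both groups were wild-type mouse brain tissue, total RNA was extracted with QIAZOL, and no strain, sex or exact adult age is given in the sources used here. The design text calls the 3 libraries of a sample biological triplicates, without saying whether each came from 1 animal or from pooled animals. The question of the comparison, as the design text states it for all brain regions, was how the 2′-O-methylation profile of ribosomal RNA (rRNA) differs between the neonate and the adult stage.

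In 2′-O-methylation a methyl group is placed on the ribose of a nucleotide. In rRNA this is done by box C/D small nucleolar ribonucleoproteins, in which the protein fibrillarin is the methyltransferase and a small nucleolar RNA (SNORD) pairs with the rRNA and selects the nucleotide. Most sites are methylated on nearly every ribosome and a smaller number on only a share of them. RiboMeth-seq reads the modification through alkaline fragmentation, since the methyl group protects the bond on the 3′ side of the nucleotide and leaves a gap in the read ends. The score runs from 0 to 1. It is obtained by dividing the read ends of a nucleotide by a weighted average of the read ends at the 6 nucleotides before and after it and subtracting the quotient from 1. A score of 0 means as many or more read ends than at the neighbours. The files hold rRNA positions and no mRNA, so no marker of a cell type could be checked, and a change in the mixture of cell types cannot be told apart from a change within a cell type.

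A catalogue of 110 known sites was placed on the mouse sequences. It had 41 sites of 18S rRNA, 67 of 28S rRNA and 2 of 5.8S rRNA. Names such as 18S Gm436 use the numbering of human snoRNA tables, while positions are nucleotides of the mouse rRNA counted from 1 at the 5′ end, so that 28S Gm4593 lies at mouse 28S nucleotide 4276. Guides are given as known for human rRNA. Of the 110 sites, 109 had enough score and coverage to be tested, and 18S Um1668 did not. The adult libraries with index 1, 2 and 3 held 26385206, 29455549 and 8108267 rRNA read ends. The P0 libraries with the same indexes held 23977367, 23847411 and 15282842. The lowest neighbour mean behind any tested score was 304.6 read ends, in the adult library with index 3. The median SD between libraries at a tested site was 0.00849 in adult and 0.0189 in P0 hippocampus, against a median counting error of 0.00277 and 0.00481.

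The stretches of mouse rRNA around the sites that moved most are printed here because the comparison turns on them, in RNA letters from the deposited files, 5′ to 3′, with every catalogue nucleotide in capitals.

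5.8S Um14: cuuagcggUggaucacu
18S Um354: cgaacgucUgcccuauc
18S Um428 and Gm436: gguucgauUccggagaGggagccug
18S Am576: cacuuuaaAuccuuuaa
18S Cm797 and Um799: gcccgaagCgUuuacuuug
18S Gm867: ggaauaauGgaauagga
28S Cm3820: cccacuguCccuaccua
28S Am3846 and Cm3848: gaaaccacAgCcaagggaa
28S Gm4588, Um4590, Gm4593 and Gm4607: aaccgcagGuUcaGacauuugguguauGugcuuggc

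The last of these stretches, nucleotides 4263 to 4298 of 28S rRNA, holds 4 sites within 36 nucleotides, and they did not move alike. Its Gm4588 rose in adult hippocampus, while Gm4593 and Gm4607 fell.

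The whole level of the scores differed between the ages before any single site is considered. The median score over the 109 sites was 0.966, 0.973 and 0.955 in the adult libraries (index 1, 2 and 3), against 0.905, 0.904 and 0.905 in the P0 libraries. The 3 adult values lay above the 3 P0 values, and the means were 0.965 ± 0.00898 and 0.904 ± 0.000815 (SD, n = 3 each). The 2-sided exact permutation test gave p = 0.1, the smallest that 3 against 3 allows. Positions outside the catalogue, which serve as the background of the assay, shifted the same way, with a mean score of 0.153 ± 0.0055 in adult and 0.123 ± 0.00233 in P0 libraries (SD, n = 3 each, exact permutation p = 0.1). The shift depended on which end of the reads was counted. From 5′ ends alone the median was 0.973 ± 0.002 in adult and 0.955 ± 0.000698 in P0 libraries, a difference of 0.0181. From 3′ ends alone it was 0.965 ± 0.0142 and 0.876 ± 0.00212, a difference of 0.0899. All adult libraries carry the library number 29 and all P0 libraries the number 30, so within the hippocampus age and library number cannot be told apart.

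**Figure D1:**
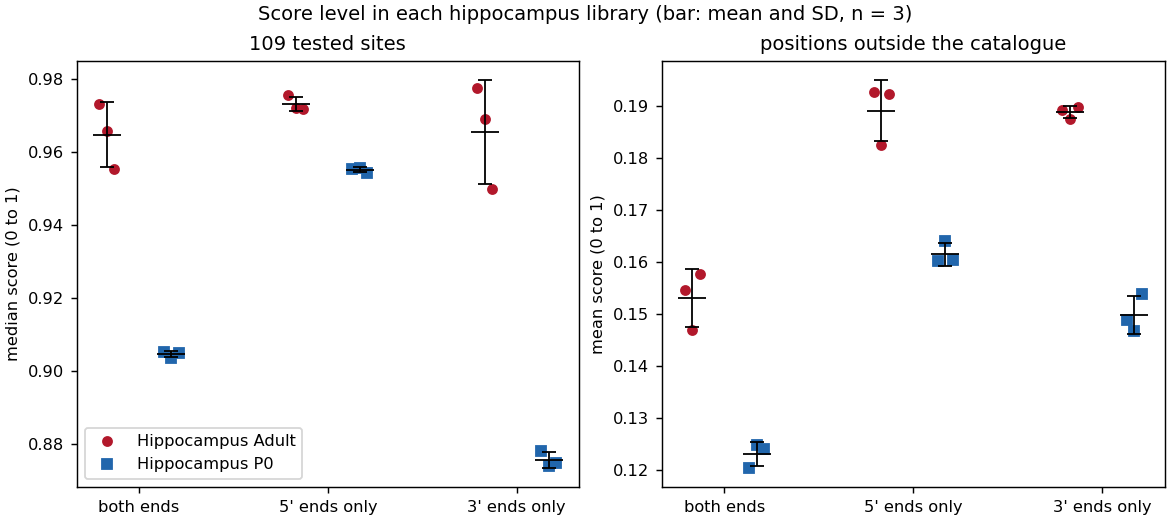
Score level in each of the 6 hippocampus libraries. The left panel plots the median score over the 109 tested sites and the right panel the mean score at positions outside the catalogue, on axes that do not start at 0, computed from both read ends, from 5′ ends only and from 3′ ends only. Red circles are adult and blue squares P0 libraries, and black bars give the mean and SD. With 3′ ends the adult median of 0.965 stands far above the P0 median of 0.876, and with 5′ ends the gap is 0.0181.

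Site by site, most of the catalogue had a higher deposited score in the adult hippocampus and 3 sites had a lower one. With limma and the library index as block, 86 of 109 sites (78.9%) were higher in adult than in P0 hippocampus and 3 (2.75%) were lower at an adjusted p below 0.05. The median difference over the 109 sites was 0.0496. Among all 109 tested sites, called or not, the libraries of the ages did not overlap at 79 with a higher adult mean and at 3 with a lower one. Outside the catalogue they did not overlap at 16.2% of 6603 positions. Because the level itself differed, the scores were also divided by each library's upper quartile over the tested sites. On that scale 36 sites (33%) were higher, 24 (22%) were lower, and the median difference was 0.0147. The 36 scaled rises were all among the 86, and the 3 falls were called on both scales. Of the 24 sites lower on the scaled values, 18 had an unscaled difference above 0, and 13 of these were called higher on the unscaled scale. The direction of those 13 depends on the scale. The scaled counts were less stable than the unscaled ones. Without the index block 18 sites were higher and 19 lower, and without the pair of index 2 or of index 3 there were 5 higher and 3 lower, or 15 higher and 4 lower. Division by each library's median in place of its upper quartile gave 18 higher and 36 lower. Of the 24, 18 had an adult mean of at least 0.95, where dividing by an upper quartile that is larger in adult libraries lowers a score that has no room to rise.

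**Figure D2:**
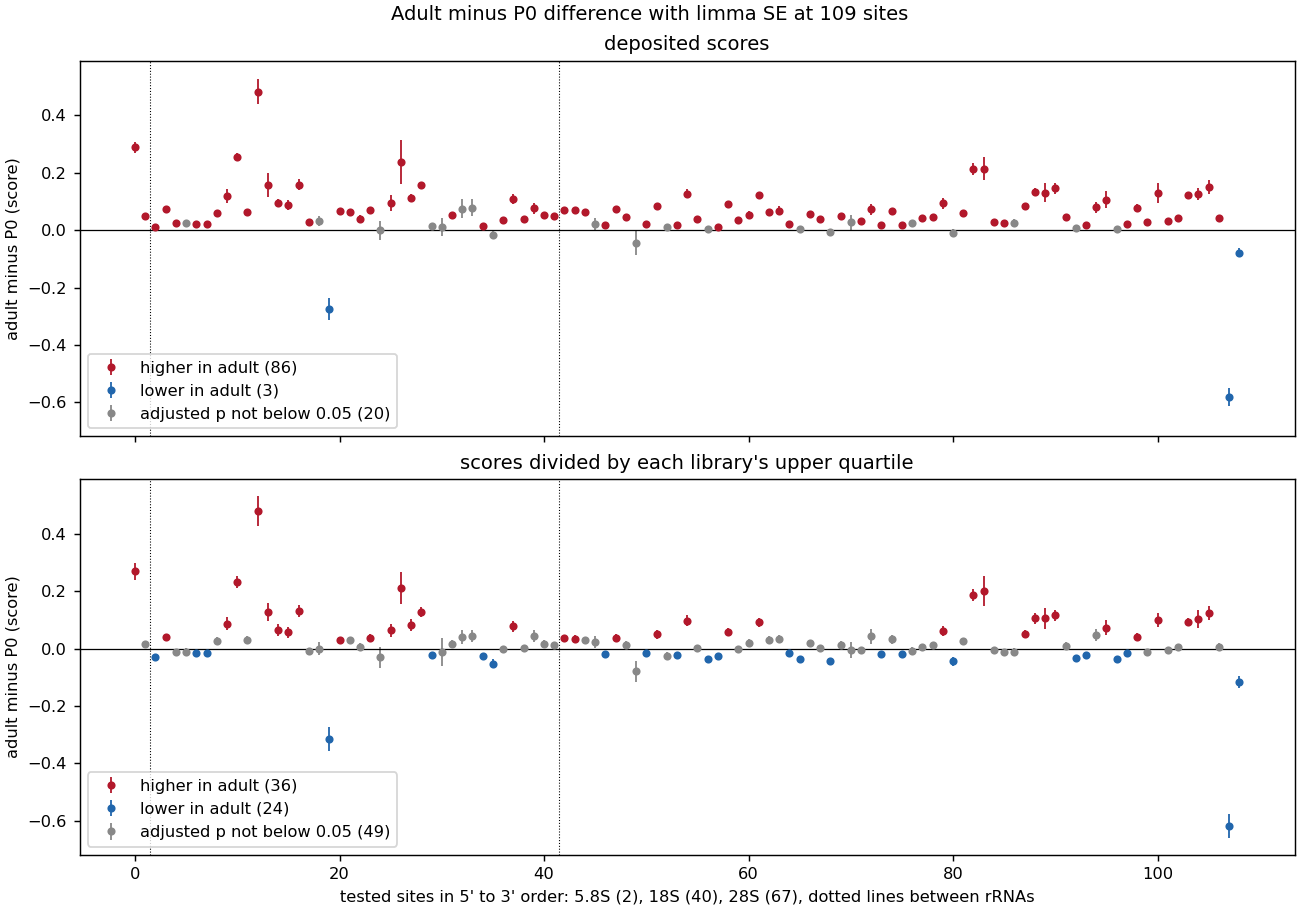
Adult minus P0 difference at the 109 tested sites in 5′ to 3′ order, with the limma SE as bars, for the deposited scores (top) and for scores divided by each library's upper quartile (bottom). Red points were higher and blue points lower at an adjusted p below 0.05 and grey points were neither. The 86 red points of the top panel fall to 36 in the bottom panel, while 18S Gm436 at the top and 28S Gm4593 at the bottom stand far from 0 in both.

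The largest difference of the comparison was a fall at 28S Gm4593, the guanosine assigned to SNORD78. Its score was 0 in all 3 adult libraries, against 0.599, 0.526 and 0.618 in the P0 libraries with index 1, 2 and 3. The adult site carried 5606, 7230 and 2028 read ends where its neighbours averaged 5265, 6888 and 1986, so as many breaks were counted at it as around it. In the P0 libraries it carried 1907, 2168 and 1291 read ends, against neighbour means of 4761, 4578 and 3381. The difference was -0.581 (SE 0.0319, adjusted p = 0.00183) and -0.617 on the scaled values (adjusted p = 5.83e-06). Both read ends showed it, with -0.559 from 5′ ends and -0.521 from 3′ ends. Since Gm4588 and Um4590 lie inside its neighbour window, the score was also computed with other catalogue sites left out of the neighbours, which gave 0.11 ± 0.0163 in adult and 0.637 ± 0.0406 in P0 libraries (SD, n = 3 each), a difference of -0.527. Of 6603 positions outside the catalogue, 1 fell by at least as much as Gm4593. A score cannot go below 0, and with a mean of 0.123 at P0 most of these positions could not fall that far.

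18S Am576, assigned to SNORD93, also fell. It scored 0.495, 0.705 and 0.511 in adult libraries, against 0.817, 0.887 and 0.831 in P0 libraries. The adult library with index 2 lay above the other adult libraries and still below the lowest P0 library. The difference was -0.275 (SE 0.0393, adjusted p = 0.00535), with -0.36 from 5′ ends and -0.202 from 3′ ends. On the scaled values the call was lost without index 3 (-0.293, adjusted p = 0.0622). Outside the catalogue 52 positions (0.788%) fell by at least as much, though most positions there scored too low at P0 to fall that far.

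28S Gm4607, assigned to SNORD121 and 14 nucleotides downstream of Gm4593, fell by less. Its score was 0.791, 0.804 and 0.859 in adult and 0.894, 0.873 and 0.920 in P0 libraries. The 2 groups did not overlap, but the gap between the highest adult and the lowest P0 library was 0.0136. The difference was -0.0779 (SE 0.0156, adjusted p = 0.011). From 5′ ends it was -0.0961 (adjusted p = 0.01), and from 3′ ends -0.0641 (adjusted p = 0.107), which did not pass. Without index 1 the difference was -0.0649 and the call was lost (adjusted p = 0.088).

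18S Gm436, assigned to SNORD100, rose most. Its score was 0.879, 0.86 and 0.839 in adult libraries, against 0.406, 0.292 and 0.431 in P0 libraries. The site was therefore mostly methylated in adult hippocampus and carried at P0 between 0.569 and 0.708 of its neighbours' read ends, with 610, 712 and 241 read ends in adult against neighbour means of 5034, 5081 and 1496, and 2900, 3733 and 1716 in P0 against 4880, 5269 and 3017. The difference was 0.483 (SE 0.0427, adjusted p = 0.00375) and hardly moved with scaling (0.478, adjusted p = 8.43e-05). From 5′ ends alone it was 0.441 and from 3′ ends alone 0.582. Outside the catalogue 10 of 6603 positions rose by at least as much.

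5.8S Um14, assigned to SNORD71, scored 0.941, 0.926 and 0.948 in adult libraries and 0.639, 0.663 and 0.648 in P0 libraries. Both groups were tight and lay far apart, with a difference of 0.289 (SE 0.0194, adjusted p = 0.00247). The value comes from 5′ ends, which gave 0.288. So close to the 5′ end of the RNA the 3′ ends give a score of 1 at both ages and hold no information on the site. Outside the catalogue 115 positions (1.74%) rose by at least as much. The other 5.8S site, Gm75 of SNORD96, had 0.97 ± 0.0204 in adult and 0.919 ± 0.0175 in P0 libraries (SD, n = 3 each). It passed on the unscaled values (0.0507, adjusted p = 0.011) and not on the scaled ones (0.0147, adjusted p = 0.255).

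18S Um354, assigned to SNORD90, scored 0.983, 0.984 and 0.980 in adult libraries and 0.709, 0.742 and 0.731 in P0 libraries. It was close to full in every adult library and about 0.25 lower in every P0 library, with a difference of 0.255 (SE 0.0145, adjusted p = 0.00183). Both read ends showed the rise, 0.165 from 5′ ends and 0.338 from 3′ ends. A rise at least as large was seen at 189 (2.86%) of the positions outside the catalogue, whose scores are mostly low and vary more.

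18S Gm867, assigned to SNORD98, scored 0.962, 0.961 and 0.957 in adult and 0.813, 0.810 and 0.789 in P0 libraries. The difference was 0.156 (SE 0.0118, adjusted p = 0.00251). The values from 5′ and 3′ ends were 0.0844 and 0.209, and each passed. 18S Gm509, assigned to SNORD11, was similar, with 0.94, 0.967 and 0.927 in adult and 0.776, 0.778 and 0.802 in P0 libraries and a difference of 0.159 (adjusted p = 0.00397). The values there were 0.124 from 5′ and 0.218 from 3′ ends.

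28S Gm4588 scored 0.948, 0.944 and 0.930 in adult and 0.83, 0.819 and 0.72 in P0 libraries, a difference of 0.151 (SE 0.0236, adjusted p = 0.00635). With Gm4593 and the other catalogue sites left out of its neighbours the difference was 0.128 (adjusted p = 0.0064), so the rise was also found without the changing neighbour. 28S Cm4032 had 0.967 ± 0.0146 in adult and 0.821 ± 0.0385 in P0 libraries, and 28S Gm3923, assigned to SNORD111, had 0.921 ± 0.0255 and 0.787 ± 0.0276 (SD, n = 3 each). Both rose, by 0.146 and 0.134, and passed with either read end on the unscaled scores. On the scaled ones both lost the call with 3′ ends only (adjusted p = 0.0629 for each) and without index 2 (adjusted p = 0.0553 and 0.0512), and Gm3923 also without index 1 (adjusted p = 0.104). The log2 read-end ratio was taken with its sign reversed and centred on each library's median over the tested sites. Its differences are therefore relative to the median site, which itself scored higher in adult libraries. On it Gm3923 differed by 0.00164 (adjusted p = 0.994). The uncentred ratios of Gm3923 were 0.055, 0.0772 and 0.106 in adult and 0.181, 0.231 and 0.227 in P0 libraries. 28S Gm4020, assigned to SNORD102, had 0.847 ± 0.0301 in adult and 0.716 ± 0.0648 in P0 libraries, a difference of 0.131 (adjusted p = 0.0228) that was 0.125 from 5′ ends without passing there (adjusted p = 0.064). Without index 1 it was 0.0915 and did not pass (adjusted p = 0.133). On the centred log2 read-end ratio its sign turned (-0.575, adjusted p = 0.0712), which is a value relative to the median site. The uncentred ratios of Gm4020 were 0.148, 0.125 and 0.185 in adult and 0.359, 0.245 and 0.248 in P0 libraries.

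28S Am3846 is a partly methylated site. It scored 0.78, 0.533 and 0.76 in adult libraries and 0.499, 0.387 and 0.542 in P0 libraries. The groups overlapped, since the adult library with index 2 lay below the P0 library with index 3, but index 2 was the lowest at both ages and the adult library was higher within each index. The difference was 0.215 (SE 0.04, adjusted p = 0.00925) with the index as block. The call was lost without the block (adjusted p = 0.0525), with a window of 2 neighbours (0.129, adjusted p = 0.0572) and with 3′ ends only (0.151, adjusted p = 0.0695). On the log2 read-end ratio centred on each library's median, an alternative chosen after seeing the data, its sign turned, with -0.63 (adjusted p = 0.134). Its uncentred ratios were 0.22, 0.467 and 0.24 in adult and 0.501, 0.613 and 0.458 in P0 libraries, lower in adult within each index.

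**Figure D3:**
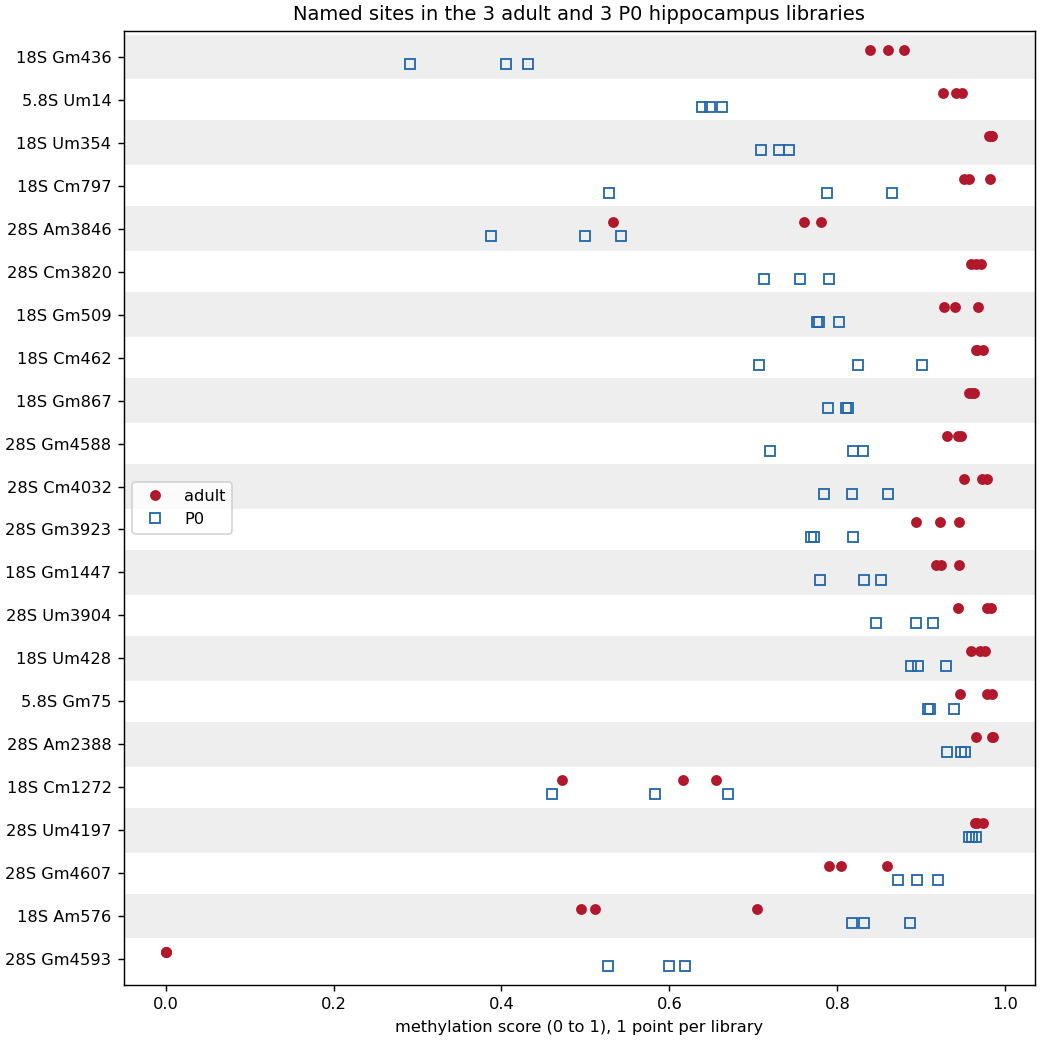
Scores of the sites named by the rule in each of the 3 adult (red circles, upper row of a site) and 3 P0 (open blue squares, lower row) hippocampus libraries, ordered by the adult minus P0 difference. Adult and P0 libraries stand apart at 18S Gm436, 5.8S Um14 and 18S Um354 at the top and at 28S Gm4593, 18S Am576 and 28S Gm4607 at the bottom, and they overlap at 28S Am3846, 18S Cm1272 and 28S Um4197.

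Several large rises rested on the 3′ ends alone. 28S Cm3820 scored 0.965, 0.972 and 0.959 in adult and 0.789, 0.713 and 0.755 in P0 libraries, a difference of 0.212 (SE 0.0208, adjusted p = 0.00375). From 5′ ends its score was 0.969 in adult and 0.964 in P0 hippocampus (difference 0.00468, adjusted p = 0.448), and from 3′ ends 0.961 and 0.639. Outside the catalogue 309 positions (4.68%) rose by at least as much. 18S Cm462, assigned to SNORD14, scored 0.966, 0.973 and 0.965 in adult and 0.825, 0.707 and 0.901 in P0 libraries, with differences of 0.000556 from 5′ ends (adjusted p = 0.906) and 0.205 from 3′ ends. From both ends it was 0.157 (adjusted p = 0.0228), and 0.165 without index 1, which did not pass (adjusted p = 0.0597). The rises of Cm3820 and Cm462 were thus not seen in the 5′ ends.

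18S Cm797 scored 0.957, 0.982 and 0.95 in adult and 0.865, 0.528 and 0.788 in P0 libraries. Its low mean at P0 is carried by index 2, and the difference of 0.236 had the largest SE among the sites that rose (0.0766, adjusted p = 0.0405). Without index 3 the call was lost (0.273, adjusted p = 0.107). From 5′ ends the difference was 0.0247 and from 3′ ends 0.34. A rise at least as large was seen at 246 (3.73%) of the positions outside the catalogue. 18S Um799, guided by SNORD105 and 2 nucleotides away, showed the reverse balance, with 0.216 from 5′ ends and 0.0582 from 3′ ends around a difference of 0.113 (adjusted p = 0.00397). It lies outside the naming rule and was added after its values were seen, as the neighbour of Cm797.

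Over all sites the median difference was 0.00834 from 5′ ends and 0.0793 from 3′ ends. With 5′ ends only, 48 sites were higher and 6 lower, and with 3′ ends only, 84 were higher and 2 lower. Sites called in the same direction on the unscaled and scaled values and with each read end alone (unscaled) numbered 23 higher and 2 lower. The 2 lower ones were 28S Gm4593 and 18S Am576. The 23 include 18S Gm436, Um354, Gm867, Gm509, Gm1447, Cm797 and Um799 and 28S Gm4588, Cm4032, Gm3923, Um3904, Cm1868, Cm2409 and Gm4469. A call with each read end did not mean a like size. From 5′ ends Gm4469, Cm2409 and Cm797 differed by 0.00506, 0.0175 and 0.0247, against 0.242, 0.204 and 0.34 from 3′ ends. Um799 had the reverse balance, 0.216 and 0.0582. On the log2 read-end ratio 13 of the 23 and both of the lower sites passed as well.

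**Figure D4:**
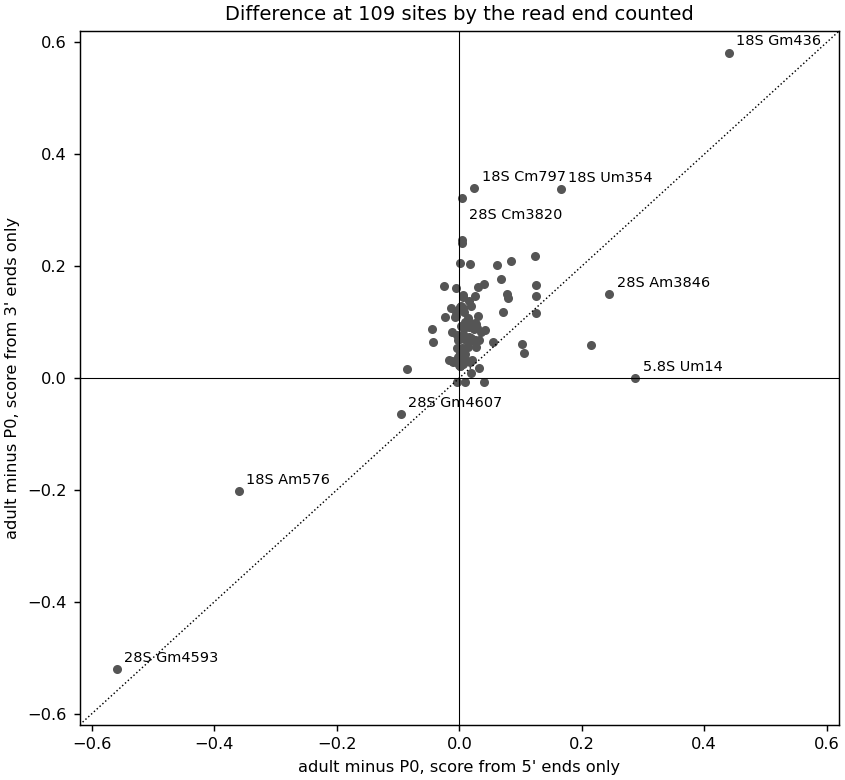
Adult minus P0 difference of the score at the 109 tested sites when only 5′ ends (horizontal axis) or only 3′ ends (vertical axis) of the reads are counted, with the dotted line marking equal differences. Most points lie in a column just above 0 on the horizontal axis and up to 0.34 on the vertical one, among them 28S Cm3820 and 18S Cm797, while 18S Gm436, 18S Um354, 18S Am576 and 28S Gm4593 are displaced on both axes and 5.8S Um14 only on the horizontal one.

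Among the remaining sites of interest by guide, 28S Um3904 (SNORD52) scored 0.979, 0.983 and 0.944 in adult and 0.913, 0.894 and 0.846 in P0 libraries and rose by 0.0839 (adjusted p = 0.00399). Its call on the scaled values was lost without the index block (adjusted p = 0.0726) and with 3′ ends only (adjusted p = 0.0601). It was also lost with median scaling (adjusted p = 0.176) and without index 2 or index 3 (adjusted p = 0.122 and 0.0635). 18S Gm1447 (SNORD127) had 0.929 ± 0.0147 in adult and 0.821 ± 0.0376 in P0 libraries and rose by 0.108 (adjusted p = 0.00635). On the centred log2 read-end ratio, which is relative to the median site, its difference was -0.136 (adjusted p = 0.666). SNORD68 guides a site in each subunit. Its 18S Um428 had 0.969 ± 0.00853 in adult and 0.904 ± 0.022 in P0 libraries, and its 28S Am2388 had 0.978 ± 0.0113 and 0.943 ± 0.0107 (SD, n = 3 each). Both rose on the unscaled values, by 0.0646 (adjusted p = 0.00551) and 0.0353 (adjusted p = 0.0206), though Am2388 did not pass without index 1 (adjusted p = 0.0678). Neither passed on the scaled ones (adjusted p = 0.0689 and 0.835).

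18S Cm1272, assigned to SNORD66, did not pass on the unscaled or scaled scores. Its score was 0.472, 0.655 and 0.617 in adult libraries and 0.46, 0.67 and 0.583 in P0 libraries. The spread between indexes was far larger than that between ages, and the difference was 0.0106 (SE 0.0316, adjusted p = 0.759). On the centred log2 read-end ratio it was -1.43 and passed as a fall relative to the median site (adjusted p = 0.00331). The uncentred ratios of Cm1272 hardly differed between the ages. They were 0.528, 0.345 and 0.383 in adult and 0.54, 0.33 and 0.417 in P0 libraries. Sites near full methylation moved little. 28S Um4197 had 0.968 ± 0.00462 in adult and 0.961 ± 0.00441 in P0 libraries (0.00686, adjusted p = 0.123), and 28S Am2802 had 0.985 ± 0.00261 and 0.98 ± 0.00378 (0.00431, adjusted p = 0.189). On the scaled values both were called lower, at -0.0317 and -0.0351.

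The other sites that the rule names for a scaled fall had like values. 28S Am2350, Gm4362 and Am3804 and 18S Cm1391 overlapped between the ages, with unscaled differences between -0.016 and 0.0039, none of which passed. 18S Cm1391, assigned to SNORD28, differed by -0.0859 from 5′ ends (adjusted p = 0.00578) and by 0.0157 from 3′ ends. 28S Cm2848, assigned to SNORD50, differed by -0.0164 from 5′ ends (adjusted p = 0.0127) and by -0.00499 from both. 18S Am27 (SNORD27) and 28S Gm2351 were called higher unscaled, by 0.0108 and 0.0129, and lower scaled, and neither passed unscaled without index 1 (adjusted p = 0.0827 and 0.133).

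Described by groups, the sites that other mouse libraries show as partly methylated had a larger median difference than those at higher levels, though not a larger share of rises on the unscaled scores. Of 12 sites with a mean score under 0.8 in the mouse libraries outside the hippocampus, 9 rose and 1 fell on each scale, against 78.9% rises over all tested sites on the unscaled and 33% on the scaled scores, and their median difference was 0.141, against 0.0496 over all 109. Of 59 sites between 0.8 and 0.95, 46 rose and 2 fell, with a median of 0.0639. Of 38 sites at 0.95 or more, 31 rose and none fell on the unscaled values (median 0.0267). On the scaled ones 4 rose and 18 fell, against 33% and 22% over all tested sites. A score that is already near 1 can rise only little.

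By rRNA, 31 of 40 tested 18S sites rose and 1 fell, and 53 of 67 28S sites rose and 2 fell, shares close to the 78.9% higher and 2.75% lower over all tested sites. The medians were 0.0627 in 18S and 0.043 in 28S rRNA. By stretch, the 18S region between Um627 and Am1031 had the highest median (0.0834 over 8 sites) together with that between Um354 and Gm601 (0.0778 over 12 sites). On the scaled values 5 of these 8 and 7 of these 12 rose, against 33% over all tested sites. The medians of these 2 stretches were 0.0222 and 0.0212 from 5′ ends, against 0.108 and 0.119 from 3′ ends. Their median P0 scores were 0.824 and 0.835, against 0.904 over all tested sites, so they had more room to rise. The domain IV cluster of 28S rRNA, near the peptidyl transferase region and the subunit interface, had a median of 0.043 over 19 sites, with 15 higher and none lower, again a share of higher calls like that over all sites. By base, methylated guanosines had the highest median (0.064 over 32) and methylated adenosines the lowest (0.0245 over 34). Adenosines made up 14 of the 24 scaled falls and 34 of the 109 tested sites. These groups were compared only as counts and medians.

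The hippocampus was set against the cerebellum and the olfactory bulb, which were sampled at the same ages, carry the same 2 library numbers and the same 3 indexes. In those regions it was the adult libraries that had low medians. The median score was between 0.831 and 0.914 in adult cerebellum and between 0.94 and 0.958 in P0 cerebellum, and between 0.908 and 0.934 in adult and between 0.941 and 0.963 in P0 olfactory bulb. The low level again lay in the 3′ ends, with medians from 0.769 to 0.885 in adult cerebellum and from 0.882 to 0.916 in adult olfactory bulb. The part of these libraries in the contrast was not tested beyond the scaling and the 5′ ends given here. The contrast is the hippocampal adult minus P0 difference less the mean of the other 2 regions' differences, fitted over 18 libraries. It was positive at 89 of 109 sites (81.7%) and negative at 2 (1.83%) on the unscaled values, and positive at 41 (37.6%) and negative at 17 (15.6%) on the scaled ones. The median contrast over all tested sites was 0.097 unscaled and 0.0432 scaled. With 5′ ends only it was positive at 41 and negative at 6 sites (unscaled). The scaled contrast had 58 calls in all, against 36 in the fit without index 1 and 37 without index 3. On the centred log2 read-end ratio, relative to the median site, the balance turned to 17 positive and 41 negative. Called in the same direction on both scales and with 5′ ends on both scales were 20 positive and 2 negative sites.

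18S Gm436 differed most from the other regions. Its score was 0.859 ± 0.02 in adult and 0.376 ± 0.0744 in P0 hippocampus, 0.427 ± 0.137 and 0.576 ± 0.0442 in adult and P0 cerebellum, and 0.455 ± 0.121 and 0.617 ± 0.0291 in adult and P0 olfactory bulb (SD, n = 3 each). The contrast was 0.638 (SE 0.073, adjusted p = 1.85e-05), 0.629 on the scaled values (adjusted p = 7.96e-05), and 0.419 from 5′ ends, where cerebellum and olfactory bulb differed by 0.0411 and 0.00145. On the log2 read-end ratio, chosen after seeing the data, the contrast was 0.169 and did not pass (adjusted p = 0.619). In adult cortex, which shares the library number of adult hippocampus, Gm436 had 0.832 ± 0.0207 (SD, n = 3).

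18S Gm509 (contrast 0.297, adjusted p = 3.33e-05) and 5.8S Um14 (contrast 0.186, adjusted p = 0.000145) also had positive contrasts. From 5′ ends the contrasts were 0.213 and 0.18. There Gm509 differed by 0.124 in hippocampus, by -0.0998 in cerebellum and by -0.0796 in olfactory bulb. Of the regions in the contrast, which leaves out cortex, it thus rose in hippocampus only. The falls were not tested from 5′ ends, and from both ends they did not pass (adjusted p = 0.0871 and 0.0564). The pattern was not particular to Gm509. 18S Gm644 (0.105, -0.0955 and -0.0854) and 28S Gm1612, Gm1747 and Gm4340 had the same signs from 5′ ends, while 18S Gm867 and 28S Gm4588 rose in each region. 5.8S Um14 was higher in adult than in P0 tissue in cerebellum (0.114, adjusted p = 0.13) and olfactory bulb (0.0916, adjusted p = 0.0693) without passing there. 28S Cm3820 had a contrast of 0.41 (adjusted p = 1.34e-05) from both ends and of 0.0235 (adjusted p = 0.0655) from 5′ ends. 18S Cm462 had 0.34 (adjusted p = 0.00305) and -0.00354 (adjusted p = 0.624). For Cm3820 and Cm462 the contrast, like the rise, was therefore not found in the 5′ ends.

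18S Um354 rose in all 3 regions. The hippocampal rise of 0.255 stood beside 0.243 for cerebellum (adjusted p = 0.00975) and 0.139 for olfactory bulb (adjusted p = 0.0215). The contrast was 0.064 (adjusted p = 0.0122) and 0.0111 on the scaled values (adjusted p = 0.612), so no difference between regions held on both scales. 28S Gm4593 fell in all 3 regions, by 0.37 in cerebellum (adjusted p = 0.00856) and by 0.249 in olfactory bulb (adjusted p = 0.0346), and fell furthest in hippocampus, with a contrast of -0.272 (adjusted p = 0.000201) on the unscaled and -0.301 (adjusted p = 0.000226) on the scaled values. Its adult score was 0 in all 3 libraries of hippocampus and likewise in all 3 of cortex, while adult cerebellum had 0.121 ± 0.0768 and adult olfactory bulb 0.186 ± 0.0485 (SD, n = 3 each). From 5′ ends the contrast was -0.0936 (adjusted p = 0.00827).

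28S Gm4607 fell less in hippocampus (-0.0779) than in cerebellum (-0.27) and olfactory bulb (-0.171), with a contrast of 0.143 (adjusted p = 0.000764). The median contrast over all tested sites was 0.097. From 5′ ends the contrast of Gm4607 was 0.112 (adjusted p = 0.00259). 18S Am576 differed by -0.275 in hippocampus, beside -0.251 for cerebellum (adjusted p = 0.0112) and -0.127 for olfactory bulb (adjusted p = 0.0626), and its contrast of -0.0861 did not pass (SE 0.0545, adjusted p = 0.148). 18S Cm1272 had a negative contrast (-0.0758, adjusted p = 0.0366), with a difference near 0 in hippocampus and positive ones in cerebellum (0.0726, adjusted p = 0.393) and olfactory bulb (0.1, adjusted p = 0.147) that did not pass on their own. Without index 1, 2 or 3 its contrast no longer passed (adjusted p = 0.173, 0.347 and 0.0577).

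**Figure D5:**
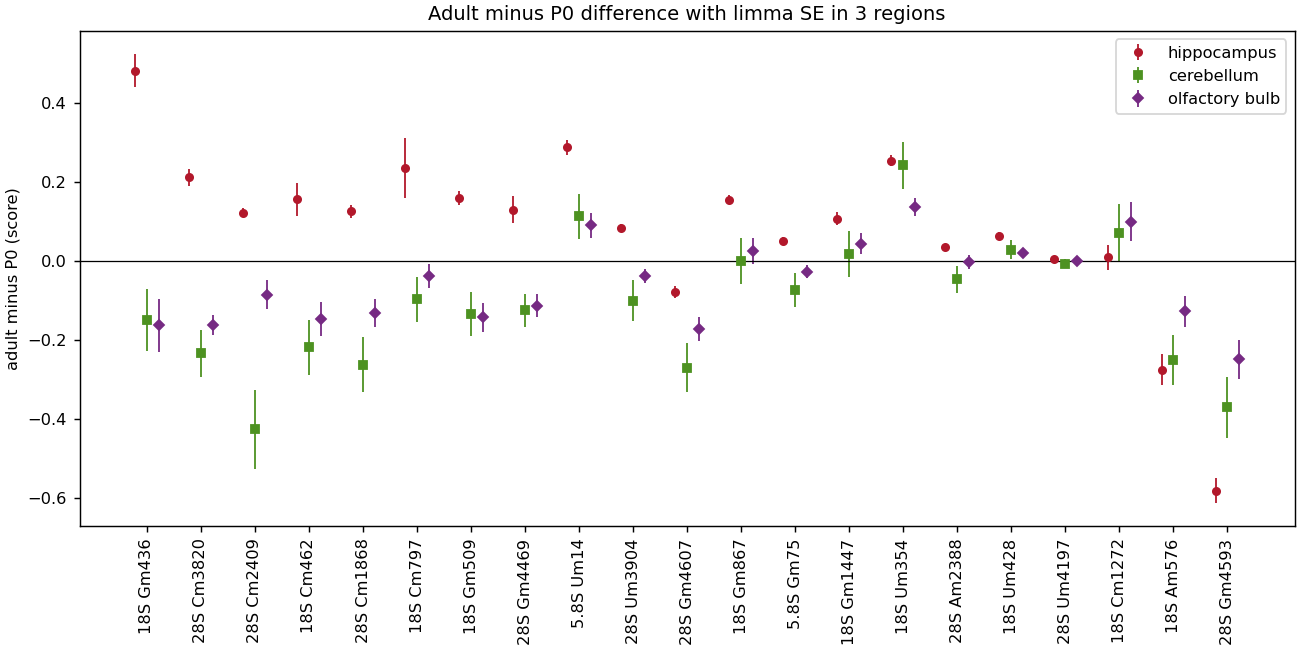
Adult minus P0 difference of the deposited score, with limma SE, in hippocampus (red circles), cerebellum (green squares) and olfactory bulb (purple diamonds) at the sites named for the contrast or in every case, ordered by the contrast of hippocampus with the other 2 regions. The red point of 18S Gm436 at 0.483 stands above the other regions, which lie near -0.15, while at 18S Um354, 18S Am576 and 28S Gm4593 all 3 regions lie on the same side of 0.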

How the data were processed

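RiboMeth-seq values of mouse hippocampus, cerebellum and olfactory bulb were used, with cortex and the other mouse libraries for levels. The authors deposited raw counts of 5′ ends, 3′ ends and their sum at every rRNA position, without scaling between libraries. The deposited score, headed Meth% per the file headers, holds fractions between 0 and 1. It was recomputed from the counts to within 5e-13 over 6722 positions. No source used here names the aligner or the counting program. Per the labels' protocols, alkali-treated RNA was size-selected on a gel, ligated to linkers and run on an Ion Proton.

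The catalogue was written from general knowledge and placed on the human sequence by base and score pattern, then on mouse by alignment, with the base as a condition. The members, site lists and tests were chosen with earlier results of these data known. A site was tested if its mean score over the mouse libraries was at least 0.2 and its neighbours averaged at least 50 read ends in every library. Differences were fitted with limma 3.58.1 in R 4.3.3 (trended prior, library index as block) with Benjamini-Hochberg adjustment over the 109 sites at 0.05. Every adjusted p in the text is from this tool. Differences in single levels were tested with the exact permutation test.

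The pairing by index was part of the definition of the comparison. Libraries of the same index deviated together across ages, with correlations of 0.615, 0.546 and 0.73 over sites. All pairs of different indexes were negative. Given the positive pairs of the same index, that is largely built in, since deviations from the mean of an age sum to 0 over its libraries. On simulated differences over the 109 sites the fit called 4 of 10 sites changed by 0.05, 9 of 10 by 0.1, 10 of 10 by 0.2 and 0 of 79 unchanged ones. The simulation had independent normal noise and index effects of the same spread at every site. It had no shift in level between ages and no bounds on the score. It therefore does not give the rate of false calls in these libraries. Named sites are up to 12 per direction and scale with 1 sign in every index pair, up to 8 per direction of the contrast on each scale, and 14 sites named in every case. Alternatives were other windows, single read ends, scales, filters, priors, edgeR 4.0.16 on read ends, and leaving out each index. Counting errors cover counting only, since reads carry no molecular identifiers.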

Additional observations from a re-analysis of the deposited data

Results flagged for a closer look

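The contrast between the hippocampal change and that of cerebellum and olfactory bulb was positive on the deposited scores at 18S Gm436 (0.638), 28S Cm3820 (0.41), 28S Cm2409 (0.378), 18S Cm462 (0.34), 28S Cm1868 (0.323), 18S Cm797 (0.302), 18S Gm509 (0.297) and 28S Gm4469 (0.249), and negative at 28S Gm4593 (-0.272) and 18S Cm1272 (-0.0758). On the scaled scores it was positive at 18S Gm436 (0.629), 28S Cm3820 (0.373), 18S Cm462 (0.299), 28S Cm1868 (0.284), 18S Cm797 (0.26), 18S Gm509 (0.253), 28S Gm4469 (0.201) and 28S Gm4340 (0.182). It was negative there at 28S Gm4593 (-0.301), 18S Cm1272 (-0.117), 28S Am2802 (-0.0589), 28S Am2350 (-0.058), 28S Um4197 (-0.0518), 18S Am1031 (-0.0457), 28S Gm2351 (-0.0454) and 28S Am1313 (-0.0403). Each of these passed the limma test of the difference between regions. The last 6 had adult means above 0.96 in hippocampus and their scaled values depend on the upper quartile. 28S Cm2409 scored 0.494 ± 0.428 in adult cerebellum (SD, n = 3). Its contrast did not pass on the scaled values (0.343, adjusted p = 0.0878) or, on the deposited ones, without index 1 or index 3 (adjusted p = 0.101 and 0.0782). Against olfactory bulb alone it was smaller and passed on the deposited (0.207, adjusted p = 0.00152) and the scaled values (0.166, adjusted p = 0.00484), and it also passed without index 2 (0.219 deposited and 0.184 scaled) and from 5′ ends (0.0564 and 0.0502). Without index 3 the scaled contrasts of 28S Cm1868 and 18S Cm797 did not pass (adjusted p = 0.0762 and 0.0524), nor did that of 18S Cm462 without index 1 (adjusted p = 0.0742).

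Outside the catalogue, 9 positions of 28S rRNA scored at least 0.75 in all 3 libraries of an age. At U1321 the score was 0.286 ± 0.0869 in adult and 0.779 ± 0.0122 in P0 hippocampus, at U1521 0.857 ± 0.0606 and 0.879 ± 0.0545, at A3726 0.802 ± 0.0528 and 0.679 ± 0.107, and at U4014 0.885 ± 0.0768 and 0.814 ± 0.121 (SD, n = 3 each). The other 5 lie between nucleotides 4717 and 4721, close to the 3′ end.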

How the results depend on the processing

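On the deposited scores, the 89 sites called (86 higher, 3 lower) were between 80 (an untrended prior) and 92 (edgeR) under no index block, no minimum, 500 neighbour read ends (84 of fewer sites), a window of 2, 3′ ends, arcsine, an untrended prior, edgeR or other catalogue sites left out, 54 with 5′ ends, and from 73 to 87 without 1 index. With no replicate block it was 81 (78 higher, 3 lower). Scaled, the 60 calls (36 higher, 24 lower) were 37 with no replicate block, 13 with 3′ ends, 28 with an untrended prior, and from 8 to 40 without 1 index. The share of higher calls was 60% there, 33.3% with scaling by the median and 40.9% on the log2 read-end ratio. Of 33 named sites called on scaled scores, 26, 8 and 15 were still called without index 1, 2 and 3, and of 28 called on unscaled scores 22, 27 and 25 were, all in the same direction. The deposited contrast had 91 calls, 83 with no replicate block, 47 with 5′ ends, and from 67 to 93 without 1 index. The scaled contrast had 58, 40 with no replicate block, and from 36 to 54 without 1 index. The median score and the background kept their sign throughout, with differences from 0.0181 to 0.0899 and from 0.0239 to 0.0391.

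The sign turned at the following sites, some of them with large differences. With 5′ ends the deposited difference was -0.000593 at 18S Am27, -0.0125 at 18S Cm1272, -0.0121 at 28S Am2350, -0.00297 at 28S Gm2351, -0.00081 at 28S Gm4362 and -0.00969 at 28S Um4197. With 3′ ends it was 0.0157 at 18S Cm1391 and 0.0319 at 28S Cm2848, and with a window of 2 it was -0.00898 at 28S Am2350. Without 1 index it ran from -0.00100 to 0.023 at 18S Cm1272, from -0.0255 to 0.000344 at 18S Cm1391, from -0.0191 to 0.000416 at 28S Am3804 and from -0.00407 to 0.00948 at 28S Gm4362. Scaled, 5′ ends gave -0.00632 at 18S Cm462, 0.00959 at 28S Am2388, -0.00205 at 28S Cm3820 and -0.00183 at 28S Gm4469. Scaled 3′ ends gave 0.045 at 18S Cm1272, 0.0098 at 28S Am2388 and -0.062 at 5.8S Um14. 18S Cm1272 had 0.00523 with a window of 2, and 5.8S Gm75 had -0.011 with median scaling. Without 1 index the scaled values ran from -0.0256 to 0.00482 at 18S Cm1272 and from -0.00794 to 0.00709 at 28S Am2388. Of the scaled calls at named sites, the log2 read-end ratio lost 28S Gm4588 (0.332, adjusted p = 0.308), 18S Gm509 (0.557, adjusted p = 0.0586) and 28S Um3904 (0.556, adjusted p = 0.0586) among others. It gave -0.136 at 18S Gm1447, 0.0373 at 28S Am2388, -0.63 at 28S Am3846 and -0.575 at 28S Gm4020. These values are relative to the median site, since the ratio was centred on each library's median.

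With 5′ ends the deposited contrast was -0.00598 at 18S Am1031, -0.00354 at 18S Cm462, -0.0174 at 28S Am2350, -0.000693 at 28S Am2802, -0.00514 at 28S Gm2351 and -0.014 at 28S Um4197, and the scaled one -0.0114 at 18S Cm462, 0.0016 at 28S Am1313 and -0.00275 at 28S Gm4469. It was -0.0196 at 28S Am2350 with a window of 2 and -0.00159 at 28S Am2802 with olfactory bulb alone. The 5′ ends contrast, the log2 ratio and the masked neighbours were chosen after seeing the data. The cause of these changes was not tested. With 3 libraries per age and counting errors below the spread between libraries, the number of libraries limits the precision more than depth.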

Other observations

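Positions outside the catalogue give the scale of difference that the 2 sets of libraries show where no known methyl group lies. Of 6603 such positions, 1292 (19.6%) were higher in adult by at least 0.1 and 422 (6.39%) lower by as much. At 0.25 the numbers were 205 (3.1%) and 70 (1.06%), and at 0.5 they were 9 and 2. The libraries of the ages did not overlap at 1072 (16.2%). The mean difference was 0.03. At most of these positions the score is low, and 12 had a mean of at least 0.7 at both ages, against 102 of the 109 tested sites, so the 2 sets of positions are not matched in level.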
